A study of Rattus norvegicus with 47 samples.

Results

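Nr0b2, Nr1h4, Nr1h3 and Nr5a2, which encode nuclear receptors of bile acid and sterol metabolism, and Fgfr4, which encodes a growth factor receptor of the same pathway, were followed in rat liver under 4 dietary supplies of vitamin A and after retinoic acid (RA), the active acid form of the vitamin. The genes were chosen by name, with earlier results of these data known. They were taken as all probe sets that the platform annotation ties to 1 of these symbols alone. This gave 7 of 31042 probe sets and 5 of 14217 named genes. Nr0b2 (1368376_at), Nr1h4 (1369073_at), Nr1h3 (1387365_at) and Fgfr4 (1389801_at) had 1 probe set each. Nr5a2 had 3, of which the one with the highest mean (1390965_at) represents the gene and the others (1384835_at and 1387573_a_at) are given beside it.

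The data are 47 single-colour Affymetrix arrays, each of liver RNA from 1 female Sprague-Dawley rat 8 weeks old, in 13 groups of 3 experiments that are fitted separately. The diet experiment has 20 arrays. Its rats were weaned from dams kept on a purified diet (AIN-93G) that lacks vitamin A, and then ate this diet with a fixed addition of retinol until they were killed. Deficient rats (n = 5) got none, marginal rats (n = 7) got 0.4 mg per kg of diet, adequate rats (n = 6) got 4 mg, and supplemented rats (n = 2) got 100 mg. In the RA time course (16 arrays) every rat was vitamin A-deficient, controls included. Of these, 3 were given vehicle and killed at 0 h, and the others got about 100 µg of all-trans-RA by a route that the labels do not give. They were killed after 3 h (n = 3), after 6 h (n = 3), after 10 h (n = 4) and after 16 h (n = 3). In the intravenous experiment (11 arrays), rats on a stock diet were all given an oil and ethanol vehicle, had their food removed and were anaesthetised with isoflurane 16 h later. About 25 µg of RA bound to albumin (10 µg per 100 g of body weight) was then injected into an iliac vein, and the rats were killed 30, 60 or 90 min later (n = 3 at each), while 2 controls had vehicle injected and were killed at 0 min. The titles call both control groups untreated, where the treatment notes say vehicle. Neither RA experiment has a vehicle group at a later time, so RA cannot be told apart from time of day, fasting time, handling and recovery from anaesthesia.

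Farnesoid X receptor (FXR, from Nr1h4) is the bile acid receptor of the hepatocyte, and liver X receptor alpha (from Nr1h3) senses oxysterols. Both bind DNA together with the retinoid X receptor, so their partner is itself a retinoid receptor. Liver receptor homologue 1 (from Nr5a2) binds DNA alone and drives genes of bile acid synthesis. Small heterodimer partner (SHP, from Nr0b2) has no DNA-binding domain. It is a well known target of FXR and represses other nuclear receptors by binding to them, liver receptor homologue 1 among them. The Fgfr4 protein, with beta-Klotho, receives the fibroblast growth factor that the ileum releases in response to bile acids and lowers bile acid synthesis.

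The stretches upstream of the transcription start are shown for Nr0b2, whose level after RA moved most among the 5 genes, and for Nr5a2, whose level passed the test in no comparison. Each is the 250 bases before the start in RefSeq (assembly GRCr8), 5′ to 3′ on the strand of the gene, at chr5:151062910-151063159 (plus strand) for Nr0b2 and chr13:50984939-50985188 (minus strand) for Nr5a2. Capitals mark matches, on either strand, to TCAAGG (core of the site that liver receptor homologue 1 binds), to the nuclear receptor recognition core AGGTCA and its variants spelled AGTTCA or spelled GGTTCA, to the E-box CACGTG and to the TATA box core TATAAA.
Nr0b2: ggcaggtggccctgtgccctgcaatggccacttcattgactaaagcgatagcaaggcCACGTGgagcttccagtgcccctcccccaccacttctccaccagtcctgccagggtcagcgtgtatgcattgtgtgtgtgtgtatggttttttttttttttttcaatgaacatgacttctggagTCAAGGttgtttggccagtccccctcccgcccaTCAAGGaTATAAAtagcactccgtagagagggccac
Nr5a2: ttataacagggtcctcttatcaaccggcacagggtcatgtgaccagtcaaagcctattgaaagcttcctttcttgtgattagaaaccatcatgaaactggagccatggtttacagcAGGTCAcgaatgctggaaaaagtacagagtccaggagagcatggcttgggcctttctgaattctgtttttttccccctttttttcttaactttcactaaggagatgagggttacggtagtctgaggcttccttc
The Nr0b2 stretch holds 2 matches to TCAAGG, 69 to 64 and 36 to 31 bases before the start, with TATAAA at 29 to 24 and CACGTG at 193 to 188. Of 33469 rat promoters of the same length, 12.6% hold TCAAGG at least once and 0.98% hold it at least 2 times, 5.59% hold CACGTG and 12.9% hold TATAAA. Neither the receptor core nor its variants matched in the Nr0b2 stretch. The Nr5a2 stretch holds AGGTCA at 134 to 129 bases before its start, as the Fgfr4 stretch does at 196 to 191. AGGTCA is in 14.1% of the promoters, the variant AGTTCA in 12.2% (that of Nr1h3 among them) and the variant GGTTCA in 9.77%. Paired cores spelled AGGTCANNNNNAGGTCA (a direct repeat) or AGGTCANTGACCT (an inverted repeat) matched in none of the 4 stretches that were given, those of Nr0b2, Nr1h3, Nr5a2 and Fgfr4, and in 0.00896% and 0.0269% of all. A match here is a run of letters and not evidence of binding, and no match says only that these letters are not in the window.

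Levels below are log2 signals relative to the median of the array, so a difference of 1 is a factor of 2. Differences carry the standard error (SE) of limma, a linear model fitted over all probe sets of an experiment, and a gene is said to rise or fall where its p-value, adjusted by Benjamini-Hochberg over all probe sets tested, was under 0.05. Levels of different probe sets are not compared with one another. The liver identity of the samples was plain: the 5 measured hepatocyte markers of 6 listed, albumin among them, had median ranks at the 99.8 percentile of their arrays or above. The treatments were also visible in retinoid genes, and Cyp26a1, which breaks down RA, was 4.35 ± 0.62 (SE) higher in supplemented than in adequate livers (adjusted p = 7.29e-04) and 8.67 ± 0.94 higher at 6 h of RA than in vehicle livers (adjusted p = 9.63e-06). Of 4 such genes listed as a check, Cyp26a1 alone was called in the first contrast and all 4 rose in the second (0.0109% and 0.201% of probe sets called). In deficient against adequate livers 3 of the 4 fell, and at 90 min after intravenous RA 3 rose (1.08% and 0.505% called). Some arrays stood apart from the rest of their experiment. Their median correlation with the other arrays was 0.676 and 0.726 for the first and second 16 h arrays, against 0.769 or more in the rest of the time course, and 0.786 to 0.817 for deficient arrays 1, 2 and 5 and adequate array 5, against 0.839 or more for all marginal and supplemented arrays. No 2 arrays held the same values (largest correlation 0.9127).

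All 7 probe sets passed the filter on low signals in all 3 experiments, and none was at the array floor on any array. The Nr0b2 signal ranked between the 70.5 and 97.6 percentile of its array. Nr1h4 ranked between 88.1 and 97, Nr1h3 between 89 and 95.9, Nr5a2 between 86.6 and 94.1, and Fgfr4 between 37.4 and 85. Among these 5, the spread in rank over 47 arrays was widest for Fgfr4 and Nr0b2. The other Nr5a2 probe sets ranked between 64 and 89.7 (1384835_at) and between 18.7 and 80.5 (1387573_a_at), the widest spread of the 7. Because whole liver was used, fewer cells of a type and less RNA per cell cannot be told apart.

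RA was followed by a high Nr0b2 level at 3 h and 6 h in deficient livers, and by a level within the vehicle range at 10 h. The 3 vehicle livers had 1.10, 3.48 and 2.23. The livers at 3 h had 4.97, 4.65 and 5.25, and those at 6 h had 5.50, 4.32 and 5.29. All 6 of these lay above every vehicle liver, as 5.28% and 4.51% of probe sets did at the 2 times. At 10 h the values were 1.66, 2.06, 1.21 and 1.64, below every liver at 3 h and 6 h and within the range of the vehicle livers. At 16 h they were 1.91, 2.34 and 3.51, the last just above the vehicle range.

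The rise of Nr0b2 was 2.68 ± 0.42 at 3 h (adjusted p = 0.0024), or 6.43-fold (95% interval 3.55 to 11.6), and 2.77 ± 0.42 at 6 h (adjusted p = 8.45e-04), or 6.81-fold (3.76 to 12.3). It ranked 6 and 10 by p-value among 28869 probe sets, where 0.0762% and 0.201% passed the test. The difference from vehicle was -0.63 ± 0.39 at 10 h (adjusted p = 0.656) and 0.32 ± 0.42 at 16 h (adjusted p = 0.726), and neither passed. All times together against vehicle gave 1.29 ± 0.33 (adjusted p = 0.138, with 0.17% called). The fall between times was tested directly. From 3 h to 16 h Nr0b2 fell by 2.37 ± 0.42 (adjusted p = 0.00118), in a contrast where 8.7% of probe sets were called and 20.9% had no overlap downward. From 6 h to 10 h, a contrast chosen after the values were seen, it fell by 3.39 ± 0.39 (adjusted p = 2.03e-05), where 0.135% were called and 6.38% had no overlap downward.

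These comparisons share the 3 vehicle livers, whose Nr0b2 values spread over 2.38 on the log2 scale, and the second of them was the high one. Without the first vehicle liver, the lowest, the rise of Nr0b2 at 3 h was 2.10 and missed the threshold (adjusted p = 0.0785), and the rise at 6 h was 2.18 and still passed. That liver had the largest Gapdh 3′ minus 5′ difference of the time course, a measure of RNA quality (0.95, against 0.34 to 0.78 on the other arrays). Its actin 3′ minus 5′ difference of 2.46 lay within the range of the others (1.58 to 2.65). The part of RNA quality in these differences was not tested. With 1 spread prior for all signal levels, in place of a prior that follows the level, no Nr0b2 call of the time course held (adjusted p = 0.64 at 3 h, 0.293 at 6 h, 0.0932 from 3 h to 16 h and 0.0655 from 6 h to 10 h).

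**Figure D1:**
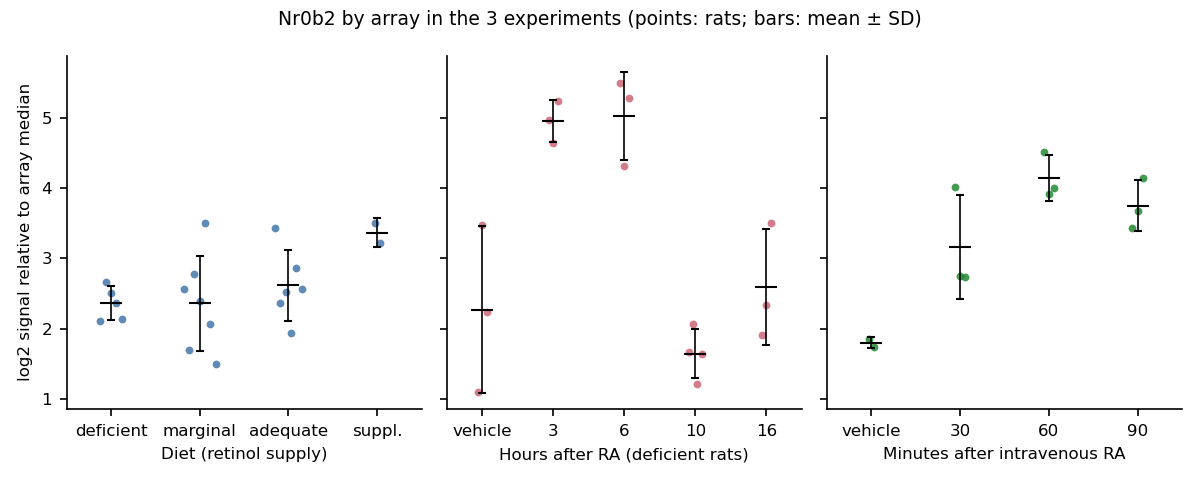
Nr0b2 log2 signal relative to the array median (vertical axis) on each of the 47 arrays, by diet, by hours after RA in deficient rats and by minutes after intravenous RA; points are rats and bars the mean ± SD. The 6 livers at 3 h and 6 h lie between 4.32 and 5.50, above all vehicle livers, the 4 at 10 h lie between 1.21 and 2.06, and all 9 livers after intravenous RA lie above both of their vehicle livers.

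Intravenous RA in fasted rats was followed by a higher Nr0b2 level within the 90 min studied. The 2 vehicle livers had 1.85 and 1.74. The livers at 30 min had 4.02, 2.75 and 2.73, those at 60 min had 4.52, 3.92 and 4.01, and those at 90 min had 3.43, 3.68 and 4.15. All 9 RA livers lay above both vehicle livers, with 1 liver at 30 min as high as those at 60 min and the other two between the groups. Such a separation upward was found for 8.46%, 9.29% and 8.76% of 22763 probe sets at the 3 times, since 2 vehicle livers leave much room for it.

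Nr0b2 was higher by 1.37 ± 0.33 at 30 min, which did not pass the test (adjusted p = 0.265). It rose by 2.35 ± 0.33 at 60 min (adjusted p = 0.00624), or 5.11-fold (95% interval 3.16 to 8.29), and by 1.96 ± 0.33 at 90 min (adjusted p = 0.0141), or 3.88-fold (2.39 to 6.29). Of all probe sets 0.0879%, 0.387% and 0.505% were called at the 3 times. The 3 times together gave 1.89 ± 0.28 (adjusted p = 0.00609, 0.29% of probe sets called), and the step from 30 to 90 min was 0.58 ± 0.29 (adjusted p = 0.676, with 0.25% called). The times share the 2 vehicle livers. The log2 difference at 60 min changed little when either vehicle liver was left out (2.41 and 2.29), but the adjusted p rose to 0.0515 and 0.0516. Without either of them, without the third liver at 90 min (1.76, adjusted p = 0.0538), or with 1 spread prior for all levels (adjusted p = 0.15 at 60 min and 0.194 at 90 min), the respective calls were lost.

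Dietary retinol left Nr0b2 without a call, with the highest level on the supplemented diet. The deficient livers had 2.11, 2.67, 2.51, 2.37 and 2.14, and the supplemented livers had 3.51 and 3.22. The 7 marginal livers had a lowest, median and highest value of 1.50, 2.39 and 3.50, and the 6 adequate livers of 1.94, 2.54 and 3.44. Both supplemented livers lay above all deficient livers, and the marginal and adequate ranges cover all deficient values and the lower supplemented value.

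The supplemented minus deficient difference of Nr0b2 was 1.11 ± 0.39 (adjusted p = 0.337), in a contrast where 0.42% of probe sets were called and 7.35% had no overlap upward. Supplemented minus adequate was 0.81 ± 0.37 (adjusted p = 1, with 0.0109% called). The trend was 0.36 ± 0.12 per step over the 4 diets in order (adjusted p = 0.323, with 0.359% called). Both supplemented arrays belong to the first of 2 runs of array identifiers, which was a term of the diet fit. In order of mean the diets ran deficient and marginal (2.36 each), adequate (2.61) and supplemented (3.37), and no neighbours in that order passed the test.

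Nr1h4 was the one of the 5 genes whose level followed the diet by this test, and it was lowest in deficient livers. The deficient livers had 3.31, 2.40, 3.48, 4.38 and 3.07. The lowest, median and highest values were 3.85, 4.62 and 4.90 in marginal livers and 4.36, 4.67 and 5.00 in adequate livers, and the supplemented livers had 4.70 and 5.28. Of the deficient livers 4 of 5 lay below every adequate and every marginal liver, and deficient array 4 lay within both ranges.

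Against adequate livers Nr1h4 fell by 1.23 ± 0.22 in deficient livers (adjusted p = 0.00158), or 2.34-fold, in a contrast where 1.08% of probe sets were called and the median of all probe sets was -0.11. Against deficient livers it rose by 1.12 ± 0.21 on the marginal diet (adjusted p = 0.00219, with 1.69% called) and by 1.42 ± 0.31 on the supplemented diet (adjusted p = 0.0247). The trend over the 4 diets was 0.44 ± 0.10 per step (adjusted p = 0.0299). Marginal minus adequate was -0.10 ± 0.20 (95% interval -0.51 to 0.30) and supplemented minus adequate was 0.19 ± 0.30 (-0.41 to 0.80), neither called. Marginal minus adequate had 0% of probe sets called by limma and 916 with an unadjusted p under 0.05. The order of the means was thus deficient (3.33), marginal (4.52), adequate (4.66) and supplemented (4.99), and the deficient group alone differed from its neighbour.

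The fall of Nr1h4 was the same way in both runs of identifiers. In the first run its mean was 3.72 in 2 deficient and 4.72 in 4 adequate livers, and in the second 3.06 in 3 deficient and 4.54 in 2 adequate livers. The second run alone kept the call (-1.48, adjusted p = 0.0106) and the first alone did not (-1.00, adjusted p = 0.217). Without the 4 arrays that stood apart, 3 of them deficient, the difference was -0.69 (adjusted p = 0.288), marginal minus deficient was 0.56 (adjusted p = 0.539) and supplemented minus deficient was 0.85 (adjusted p = 0.293). Supplemented minus deficient also lost its call without either supplemented array (1.71 and 1.13), without deficient array 5 (1.22) and with the replicate number as a block (1.83, adjusted p = 0.575). With 1 spread prior for all levels, deficient minus adequate was not called (adjusted p = 0.0689). Marginal and supplemented minus deficient were not called either (adjusted p = 0.079 and 0.279). Deficient array 5 also had a Gapdh 3′ minus 5′ difference of 0.92, a measure of RNA quality, and adequate array 5 one of 1.37, against 0.11 to 0.54 in the marginal livers. Deficient arrays 1 and 2 had 0.25 and 0.28, within the marginal range. The actin 3′ minus 5′ difference was 1.32 for deficient array 5 and 3.16 for adequate array 5, against 1.23 to 2.1 in the marginal livers. The part of RNA quality in the difference was not tested.

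After RA, Nr1h4 passed the test at no time. In the time course the vehicle livers had 3.73, 4.91 and 4.03, and the livers at 3 h had 4.83, 4.92 and 5.22. The second vehicle liver was as high as those at 3 h, and the other two were lower than all of them. The differences from vehicle were 0.76 ± 0.25 at 3 h, 0.62 ± 0.25 at 6 h, 0.47 ± 0.23 at 10 h and 0.01 ± 0.25 at 16 h (adjusted p = 1, 0.793, 0.526 and 0.992). Without the second vehicle liver and both 16 h arrays that stood apart, a setting chosen after the values were seen, Nr1h4 was 1.11 higher at 3 h (adjusted p = 0.00274), 0.96 at 6 h and 0.81 at 10 h. Quantile normalization also gave calls at 6 h (0.75, adjusted p = 0.0446) and 10 h (0.74, adjusted p = 0.0188). Without the first vehicle liver, the lowest, the differences were smaller, 0.52 at 3 h, 0.37 at 6 h and 0.22 at 10 h, none called. That liver had the largest Gapdh 3′ minus 5′ difference of the time course, as given above. In the intravenous experiment all 3 livers at 60 min (4.19, 4.15 and 4.10) lay above the vehicle livers (3.55 and 3.91), as 9.29% of probe sets did, at a difference of 0.42 ± 0.19 (adjusted p = 0.47).

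Nr1h3 was lower at the late times of the RA course. The vehicle livers had 4.33, 4.74 and 4.67, those at 3 h had 4.31, 4.29 and 4.37, and those at 6 h had 4.21, 4.05 and 4.20. At 10 h the values were 3.69, 3.71, 3.56 and 3.50, and at 16 h they were 2.71, 3.78 and 4.02. All livers at 6 h, 10 h and 16 h lay below every vehicle liver, a pattern that 6.5%, 7.46% and 13.8% of probe sets showed at those times. The mean fell at each later time, from 4.58 in vehicle livers to 3.50 at 16 h, and the first 16 h array was the lowest.

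Nr1h3 fell by 1.08 ± 0.25 at 16 h against vehicle (adjusted p = 0.0128), where 6.11% of probe sets were called and the median probe set was at -0.39, and by 0.82 ± 0.25 from 3 h to 16 h (adjusted p = 0.0406, with 8.7% called and 20.9% without overlap downward). At 10 h the difference was -0.97 ± 0.24 and missed the threshold (adjusted p = 0.0616, with 0.488% called), and without vehicle array 1 it passed (-1.09, adjusted p = 0.0297). Relative to the median of all probe sets the differences were -0.69 at 16 h, -0.77 at 10 h and -0.40 from 3 h to 16 h. Without both 16 h arrays that stood apart the 16 h difference was -0.57 (adjusted p = 0.544), and after quantile normalization it was -0.46 (adjusted p = 0.252), and without the first 16 h array alone it was -0.68 (adjusted p = 0.0982). In the same settings the difference from 3 h to 16 h was -0.30, -0.11 and -0.42, none called, and it also lost its call without any 1 of the 3 h arrays (adjusted p = 0.0931 to 0.122).

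Diet and intravenous RA gave no call for Nr1h3. In the diet experiment its level differed between the runs of identifiers. In the first run the means were 4.24 in deficient, 4.34 in marginal and 4.26 in adequate livers, and in the second 2.90, 3.42 and 3.61. Every diet present in both runs was lower in the second. With the run as a term the deficient minus adequate difference was -0.35 ± 0.20 (adjusted p = 0.475). After intravenous RA the differences of Nr1h3 from vehicle were -0.19 ± 0.16, 0.14 ± 0.16 and -0.06 ± 0.16 at 30, 60 and 90 min.

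Fgfr4 also was lower at 16 h of RA. The vehicle livers had 2.27, 2.61 and 2.59, and the livers at 16 h had 0.76, 1.30 and 0.95, all below every vehicle liver, as 13.8% of probe sets were. At 10 h the values were 2.51, 0.68, 1.86 and 1.70, with 3 of 4 below the vehicle range. At 3 h (2.73, 2.46 and 2.44) and 6 h (2.65, 1.86 and 1.73) the livers overlapped with the vehicle livers.

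Fgfr4 fell by 1.48 ± 0.38 at 16 h against vehicle (adjusted p = 0.0212, with 6.11% of probe sets called), or 2.79-fold. From 3 h to 16 h it fell by 1.54 ± 0.38 (adjusted p = 0.0125), where 8.7% were called and 20.9% had no overlap downward. Relative to the median of all probe sets these were -1.09 and -1.11. The single 16 h array that did not stand apart gave -1.54 against vehicle (adjusted p = 0.222), so the size held there and the call did not, and the lone array is assumed to vary like the other groups. After quantile normalization the difference was -1.11 (adjusted p = 0.138). In the diet experiment the deficient livers ranged from -0.71 to 2.48, the widest range of this gene in any group, with deficient array 1 the lowest, and no diet contrast was called (deficient minus adequate -0.66 ± 0.35, adjusted p = 0.436). In the intravenous experiment no difference of Fgfr4 exceeded 0.24 in size.

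With 1 spread prior for all levels the 16 h calls of Nr1h3 and Fgfr4 were lost too (adjusted p = 0.169 and 0.157). In all, 15 of 90 comparisons of the 5 genes were called, 7 of Nr0b2, 4 of Nr1h4, 2 of Nr1h3 and 2 of Fgfr4, in contrasts where 0% to 8.7% of all probe sets were called. In limma without the trend of spread on level 0 of the 15 were called, with adjusted p of 0.0655 to 0.64 and an unadjusted p under 0.05 in all 15. Some marker lists of other cells were lower over the same hours as Nr1h3 and Fgfr4. On a linear scale with the array median as 1, the summed level of 6 stellate cell markers was 32.1 to 51 in vehicle and 14.9 to 23.8 in 16 h livers, and that of 4 Kupffer cell markers was 76.1 to 107 and 48 to 61.5. A list from another organ, 5 pancreatic acinar cell markers, also had a lower sum without overlap (5.97 to 9.1 and 2.96 to 5.15). Of these 5 markers, 4 had means below the array median in both groups. The sums overlapped between the 2 groups for sinusoidal endothelial cells (41.5 to 73.3 and 41.9 to 54.7), cholangiocytes (6.82 to 10.4 and 5.44 to 9.33) and B and T cells (1.3 to 3.41 and 1.98 to 3.38). They overlapped for intestinal epithelial cells too (5.87 to 6.73 and 2.11 to 8.43). The sum of 5 hepatocyte markers was 1800 to 2700 in vehicle and 2370 to 3950 in 16 h livers. In both groups some of the 6 stellate markers had means below the array median, 4 in vehicle and 3 in 16 h livers. Their part in the results was not tested.

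**Figure D2:**
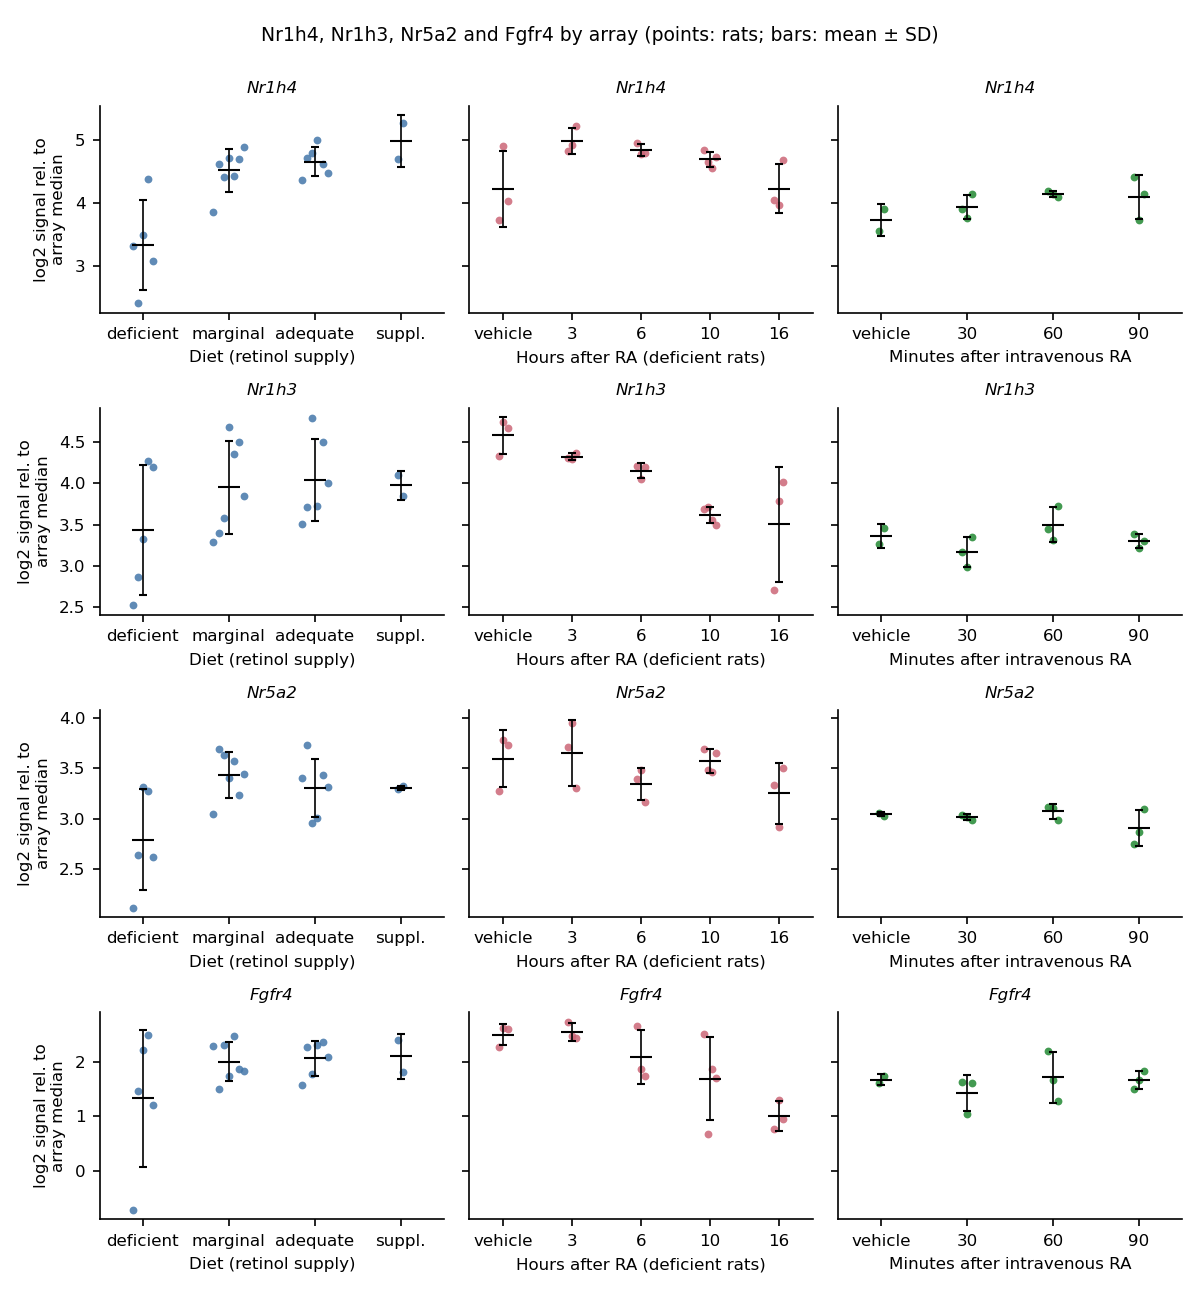
Log2 signal relative to the array median of Nr1h4, Nr1h3, Nr5a2 (1390965_at) and Fgfr4 on each array, with 1 row per gene and 1 column per experiment; points are rats, bars the mean ± SD, and the vertical scale differs between rows. Nr1h4 is lowest in 4 of 5 deficient livers, within the RA course Nr1h3 and Fgfr4 are lowest at the late times, while over all arrays both are lowest in deficient array 1 (2.52 and -0.71), and Nr5a2 stays between 2.12 and 3.95.

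No comparison of Nr5a2 passed the test. Its deficient livers had 2.12, 2.64, 3.31, 3.27 and 2.62. The lowest, median and highest values were 3.05, 3.44 and 3.69 in marginal and 2.96, 3.35 and 3.73 in adequate livers, and the supplemented livers had 3.29 and 3.32. The deficient minus adequate difference was -0.53 ± 0.20 (adjusted p = 0.248), and marginal minus deficient was 0.65 ± 0.19 (95% interval 0.25 to 1.04, adjusted p = 0.0787). In the time course the differences from vehicle lay between -0.35 ± 0.25 at 16 h and 0.06 ± 0.25 at 3 h, and after intravenous RA between -0.13 ± 0.14 at 90 min and 0.03 ± 0.14 at 60 min. The 95% intervals of the intravenous differences reached from -0.43 to 0.33 and so hold changes of that size. Without deficient array 4, which had 3.27, the diet differences were called (-0.71 against adequate, adjusted p = 0.038, and 0.81 for marginal minus deficient, adjusted p = 0.0084), and the second was also called without deficient array 3 (0.77) or marginal array 1 (0.74).

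Of the other Nr5a2 probe sets, 1387573_a_at differed in the same direction as the first over the diets. Marginal minus deficient was 0.71 ± 0.33 for 1387573_a_at and 0.14 ± 0.29 for 1384835_at, and supplemented minus deficient was 1.09 ± 0.50 and 0.43 ± 0.44. Deficient minus adequate was -0.22 ± 0.35 for 1387573_a_at and 0.05 ± 0.30 for 1384835_at. At 90 min after intravenous RA, 1384835_at was at 1.47, 1.73 and 1.78, below the vehicle livers at 2.19 and 2.10 (-0.49 ± 0.18, adjusted p = 0.326), a separation that 20.1% of probe sets showed. The third, 1387573_a_at, had means between 0.90 and 1.97 in the diet groups and between -1.79 and -0.09 in the time course, and its SE there was 0.98 to 1.05 against 0.23 to 0.25 for 1390965_at. No probe set of Nr5a2 was called in any contrast.

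**Figure D3:**
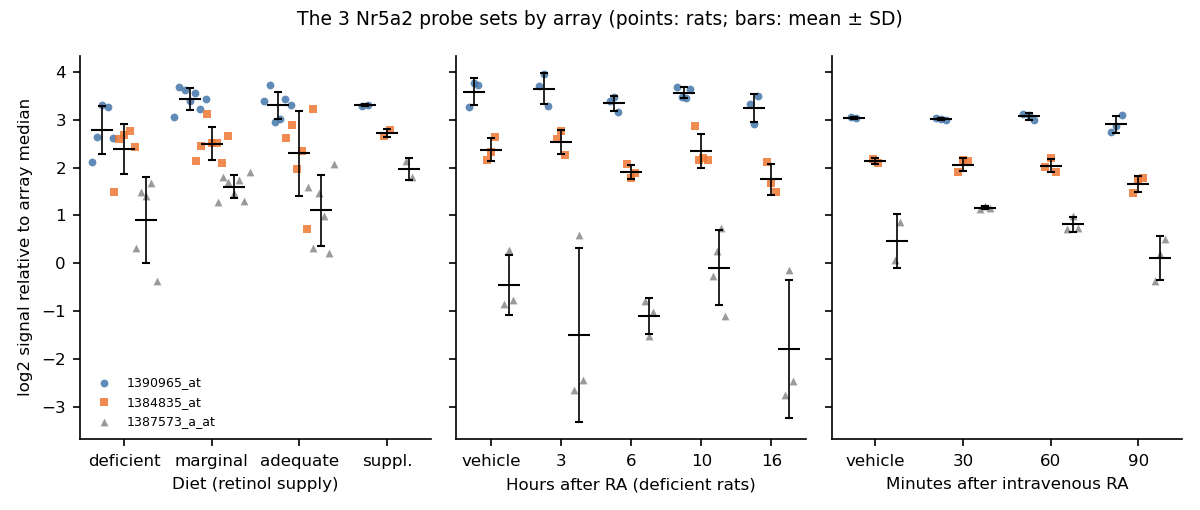
Log2 signal relative to the array median of the 3 Nr5a2 probe sets on each array, by group of the 3 experiments; points are rats and bars the mean ± SD. The first, 1390965_at, ranges from 2.12 to 3.95 over all arrays, 1384835_at from 0.72 to 3.22 and 1387573_a_at from -2.76 to 2.14.

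**Figure D4:**
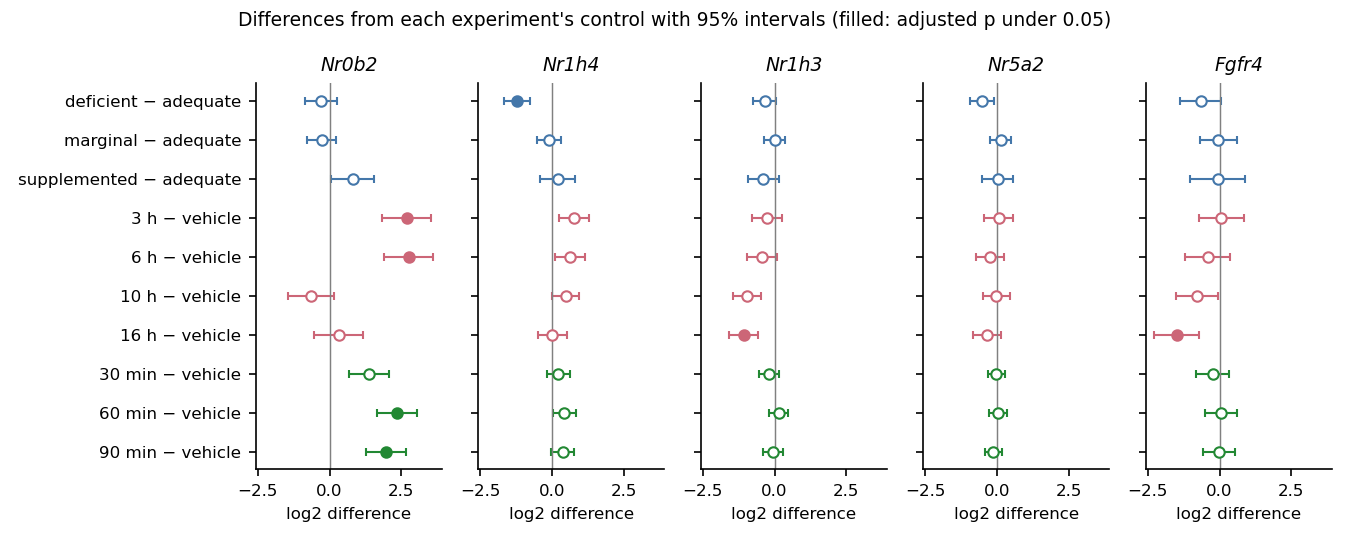
Log2 differences of each gene from the control of its experiment with 95% intervals (horizontal axis), for 3 diet contrasts, 4 times of the RA course and 3 times after intravenous RA; filled points have an adjusted p under 0.05. Filled points are at 3 h, 6 h, 60 min and 90 min for Nr0b2, at the deficient diet for Nr1h4 and at 16 h for Nr1h3 and Fgfr4, and the times within an experiment share their vehicle livers.

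Among the bile acid genes, Cyp8b1 was lowest at 10 h, after the hours at which Nr0b2 was high. Cyp8b1, the sterol 12-alpha-hydroxylase that sets the cholic acid share of bile acids, had 6.24, 4.67 and 7.26 in vehicle livers. It had 5.57, 4.99 and 5.06 at 3 h, 4.33, 3.77 and 3.55 at 6 h, 0.62, 0.94, 0.83 and 0.58 at 10 h and 5.01, 4.00 and 4.15 at 16 h. The 10 h livers were thus below all others, at the time when Nr0b2 was back in the vehicle range. Cyp8b1 fell by 2.17 ± 0.38 at 6 h (adjusted p = 0.0055), by 5.31 ± 0.36 at 10 h (adjusted p = 9.27e-11), or 39.7-fold, and by 1.67 ± 0.38 at 16 h (adjusted p = 0.0114), while -0.85 ± 0.38 at 3 h was not called. From 6 h to 10 h both genes fell, Cyp8b1 by 3.14 ± 0.36 and Nr0b2 by 3.39 ± 0.39. Any link between them was not tested. After intravenous RA Cyp8b1 stayed at 7.16 to 7.84, and none of its differences was called.

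Cyp7a1, the rate-limiting enzyme of bile acid synthesis, had 0.85, 0.99 and 5.18 in vehicle livers and -1.23, -3.51, -1.56 and 0.58 at 10 h, where it fell by 3.77 ± 0.82 (adjusted p = 0.0246). The third vehicle liver was over 4 higher than the other two. At 16 h Cyp7a1 had 4.62, 5.03 and 4.12, a rise of 4.00 ± 0.87 from 3 h (adjusted p = 0.00535). Abcb11, the bile salt export pump and a well known FXR target, had 5.34, 5.94 and 5.74 in vehicle livers and 4.34, 4.80 and 5.22 at 16 h, a fall of 0.89 ± 0.22 (adjusted p = 0.0191). At 3 h and 6 h, when Nr0b2 was high, Abcb11 differed from vehicle by 0.14 ± 0.22 and -0.09 ± 0.22, and in deficient against adequate livers, where Nr1h4 was lower, by -0.32 ± 0.19 (adjusted p = 0.511), none of them called.

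**Figure D5:**
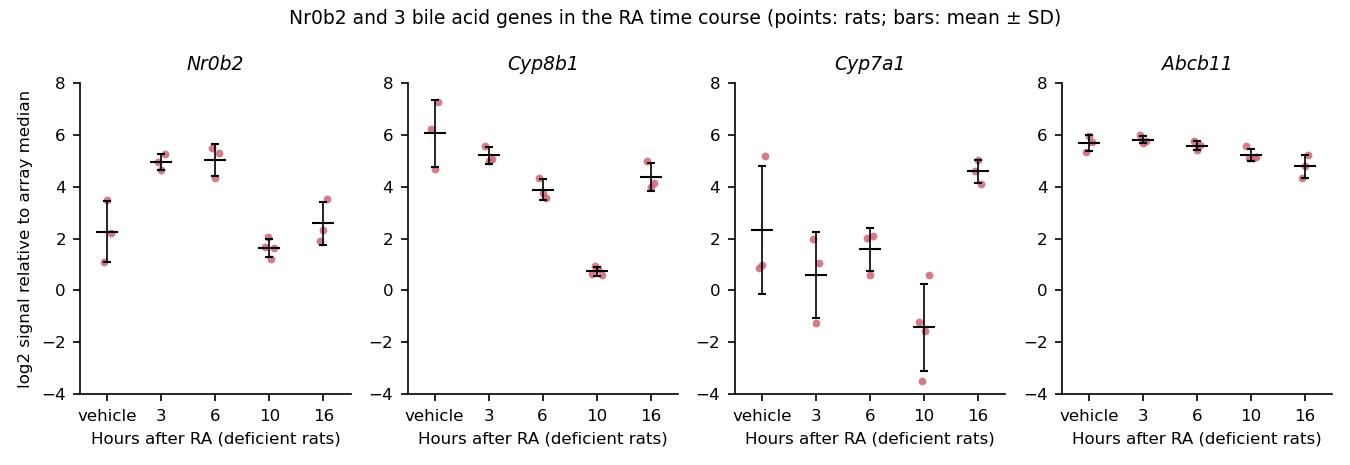
Log2 signal relative to the array median of Nr0b2, Cyp8b1, Cyp7a1 and Abcb11 on the 16 arrays of the RA course in deficient rats, by hours after RA; points are rats and bars the mean ± SD. Nr0b2 is high at 3 h and 6 h, Cyp8b1 is lowest at 10 h (0.58 to 0.94), and the vehicle livers of Cyp7a1 spread from 0.85 to 5.18.

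At the times when Nr0b2 was high, few other FXR targets were called with it, and more were lower at 16 h than at 3 h. Of 22 listed targets, Nr0b2 itself included, 17 were tested. At 3 h Nr0b2 alone was called (list median 0.02, all probe sets 0.03). At 6 h Nr0b2 rose and Osgin1, an oxidative stress-induced growth inhibitor, fell by 1.65 ± 0.28 (list median -0.08, all probe sets -0.09). Osgin1 also fell by 1.96 ± 0.35 at 60 min after intravenous RA (adjusted p = 0.0233). At 16 h 3 targets fell, Abcb11, Osgin1 (-1.56 ± 0.28) and the phospholipid flippase gene Abcb4 (-1.11 ± 0.25), and none rose, with a list median of -0.35 against -0.39 over all probe sets. From 3 h to 16 h 7 targets fell and none rose, Nr0b2 and 6 others, Abcb11 (-1.03 ± 0.22), Abcb4 (-1.13 ± 0.25) and the phospholipid transfer protein gene Pltp (-1.19 ± 0.30) among them. The list median was -0.46 there against -0.42 over all probe sets, of which 8.7% were called. In deficient against adequate livers, where Nr1h4 was lower, Abcb4 rose by 0.78 ± 0.19 and Slco1b2, a hepatocyte uptake carrier, fell by 0.96 ± 0.24 (adjusted p = 0.0304 and 0.0386), with a list median of 0.03 against -0.11.

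Genes that SHP is known to repress were listed too, and 12 of 15 were tested. At 10 h Cyp7a1 and Cyp8b1 fell and Gnmt, the glycine methyltransferase, rose by 1.49 ± 0.28 (adjusted p = 0.0063), with a list median of -0.07 against -0.19 over all probe sets. At 16 h Cyp8b1 and Mttp, the triglyceride transfer protein (-1.16 ± 0.24), fell and Gnmt rose (1.30 ± 0.29). None was called at 3 h, 30 min, 60 min or 90 min. On the supplemented diet Cyp8b1 was lower by 1.72 ± 0.32 than on the deficient diet (adjusted p = 0.00479), the one call of the list there.

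Of 15 listed targets of liver receptor homologue 1, a list that holds Nr0b2, Cyp7a1 and Cyp8b1 as well, 13 were tested. In deficient livers Abcg5, a partner in a sterol exporter, rose by 2.21 ± 0.46, Sds, serine dehydratase, rose by 1.76 ± 0.33 and Fasn, fatty acid synthase, fell by 2.66 ± 0.30, while Nr5a2 itself was not called. The list median was 0.00 there, against -0.11 over all probe sets, of which 1.08% were called. At 16 h 4 of the 13 fell, Cyp8b1, Scarb1, Apom and Cpn1, and none rose, with a median of -0.70 against -0.39.

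Of 18 listed targets of liver X receptors, 17 were tested, Nr1h3 among them. Abcg5 and Fasn are also on the list of liver receptor homologue 1. In deficient against adequate livers Scd, stearoyl-CoA desaturase, fell by 3.65 ± 0.45 and Fasn by 2.66 ± 0.30, and Abcg5 rose, with a list median of -0.15 against -0.11. At 16 h of RA Nr1h3 and the cholesterol exporter Abca1 (-1.11 ± 0.31, adjusted p = 0.0346) fell and none rose, with a median of -0.70. From 3 h to 16 h 7 fell and 1 rose, with a median of -1.16 against -0.42 over all probe sets, of which 8.7% were called.

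Genes of fibroblast growth factor signalling numbered 29, of which 24 were tested in the diet experiment and the RA course and 21 in the intravenous one. At 16 h Grb2, an adaptor protein (-0.89 ± 0.26), and Dusp6, a phosphatase that dampens the pathway (-0.83 ± 0.25), fell, and none rose (median -0.39, as over all probe sets). In deficient livers Fgfr2, a related receptor, fell by 0.81 ± 0.19 (adjusted p = 0.02). The immediate early genes Egr1 (1.44 ± 0.16) and Fos (2.65 ± 0.34) of this list rose at 30 min after intravenous RA, and Egr1 (1.02 ± 0.16) and Spry1 (1.04 ± 0.19), a feedback inhibitor, at 90 min.

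Among 44 other nuclear receptor genes, of which 36 were tested in the time course, Rarb, the RA receptor beta, was the one called at 3 h (1.78 ± 0.29) and at 6 h (1.39 ± 0.29). It was also the one called at 90 min among 34 (1.45 ± 0.18). From 6 h to 10 h Nr1d2, a clock receptor, fell by 2.00 ± 0.35 (adjusted p = 0.00715) as Nr0b2 did. At 16 h 4 of the 36 fell and none rose (median -0.52 against -0.39), the glucocorticoid receptor gene Nr3c1 among them (-0.97 ± 0.27). Of 31 coregulator genes, 27 were tested in the time course, and 7 fell and none rose at 16 h, Ncor1 (-0.93 ± 0.28), a corepressor, and Ep300 (-1.59 ± 0.35), a coactivator, among them. Their median was -0.57 against -0.39 over all probe sets.

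The counts of the lists at 16 h stand beside 6.11% of all probe sets called against vehicle, 64 higher and 1701 lower, and 8.7% called from 3 h to 16 h, 86 higher and 2427 lower. This split depends on the scaling and on the arrays that stood apart. After quantile normalization 112 were higher and 213 lower against vehicle, and 97 and 263 from 3 h. Without both 16 h arrays that stood apart 14 were higher and 113 lower against vehicle, and 3 and 188 from 3 h. In that fit none of the targets of FXR, of liver receptor homologue 1 or of liver X receptors and none of the coregulator genes was called lower at 16 h, against vehicle or against 3 h. After quantile normalization the genes of these 4 lists called lower were 4 targets of FXR against vehicle, and 3 of FXR and 1 of liver receptor homologue 1 from 3 h. Against vehicle the fibroblast growth factor genes and the other nuclear receptors had 0 called lower in either of those fits, and the genes that SHP represses had 1 after quantile normalization and 0 without both arrays.

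The genes whose signal was most like that of each member were found by Pearson's r over the 47 arrays, after the mean of each experiment was taken off, among 11651 named genes. The arrays share depth of signal, quality and the arrays that stood apart, and the coefficients are descriptions. For Nr0b2 they were Klf15 (r = 0.73), Limk2 (0.69) and Hes1 (0.67), and the most opposite were Mex3b (-0.70), Wfdc6a (-0.53) and Dynlrb2 (-0.52). Klf15 had r = 0.91 over the RA course and 0.89 over the intravenous experiment but 0.28 over the diets. For Nr1h4 they were Pde2a (0.86), Cers2 (0.85) and Rcbtb2 (0.83), with 0.91, 0.88 and 0.92 over the diets and 0.35, 0.25 and -0.34 over the intravenous experiment. The lowest were Pla2g12a (-0.56), Lsp1 (-0.54) and Cyp17a1 (-0.54).

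For Nr1h3 the nearest were Atp6v0c (0.92), Abhd17c (0.91) and Rpn1 (0.90) and the lowest Ccdc65 (-0.64), Kcnj16 (-0.57) and Adam22 (-0.55). For Nr5a2 they were Taf13 (0.83), Mthfs (0.81) and Sepsecs (0.81) and the lowest Ubtf (-0.52), Ckm (-0.46) and Elmo1 (-0.45). For Fgfr4 they were Setd2 (0.77), Erlec1 (0.76) and Sec22b (0.76) and the lowest Unc45b (-0.55), Cilp2 (-0.49) and Tcf23 (-0.47). No gene was among the 3 nearest of 2 members. In the intravenous experiment the r values of these nearest genes were lower for Nr1h4, Nr1h3, Nr5a2 and Fgfr4 (at most 0.54) than over all 47 arrays.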

How the data were processed

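The 47 arrays are single-colour, 1 rat liver on each. The authors deposited 1 table of log2 signals for 31099 probe sets, made with GCOS (version not given), per the submitters' processing notes. The values are centred on a median of 0 per array, as found from the values, so no logarithm or offset was applied. The design had allowed for linear values. The 57 control probe sets were left out. Of all probe sets without controls, 20826 carry 1 gene symbol, 436 several and 9780 none here.

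limma 3.58.1 (R 4.3.3) gave 1 linear model per experiment, as group means (lmFit) with a spread prior that follows the signal level (eBayes, trend). Probe sets above the 40 percentile of their array in at least 2 arrays of the experiment were tested, 27595, 28869 and 22763 in turn. The diet fit had the run of array identifiers (12 and 8 arrays) as a term. Calls are Benjamini-Hochberg adjusted p-values under 0.05. The spread rests on 15, 11 and 7 residual degrees of freedom and a prior worth 16.7, 18.4 and 7.29. The pipeline was tested on simulated data.

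Members and lists were chosen with earlier results of these data known. Genes of the lists were named by rule, the called ones of a contrast with the largest changes, at most 4. The number of arrays limits the precision. Promoters are from RefSeq (GRCr8), matched for 4 of 5 genes. Alternatives were quantile normalization, no filter, no trend, arrayWeights, a linear offset of 0.25 of the array median, the mean over probe sets, the replicate block, no run term, either run by itself, the run entered as random, each array left out, and fits without the arrays that stood apart.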

Additional observations from a re-analysis of the deposited data

Results flagged for a closer look

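Differences between times after RA were singled out because the change itself was tested between 2 treated groups. Nr0b2 was lower at 16 h than at 3 h (-2.37, adjusted p = 0.00118) and lower at 10 h than at 6 h (-3.39, adjusted p = 2.03e-05, a contrast chosen after the values were seen), with no overlap of arrays in either. Nr1h3 (-0.82, adjusted p = 0.0406) and Fgfr4 (-1.54, adjusted p = 0.0125) were lower at 16 h than at 3 h, again with no overlap, in a contrast where 20.9% of probe sets had no overlap downward. Without both 16 h arrays that stood apart, the 3 h to 16 h differences were -1.45 for Nr0b2, -0.30 for Nr1h3 and -1.59 for Fgfr4, and none was called. Over the 5 genes and the 4 groups of 4 to 7 arrays, 20 sets of values in all, none held an array far from the others by Dixon's criterion. Groups of 2 or 3 arrays, the vehicle, 3 h and 16 h groups among them, are too small for it and were not checked.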

How the results depend on the processing

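Of 15 calls among the 5 genes, 15 were kept with arrayWeights, with no filter and with an offset, 14 with the mean over probe sets (Nr1h3 from 3 h to 16 h, -0.82, was lost), 11 after quantile normalization and 0 without the trend. No called difference changed sign. Without the trend the values stay and the adjusted p moves: Nr1h4 -1.23, 1.12, 1.42 and 0.44 (deficient minus adequate, marginal and supplemented minus deficient, diet trend; 0.0689 to 0.324), Nr0b2 2.68, 2.77, -2.37 and -3.39 (3 h, 6 h, 16 h minus 3 h, 10 h minus 6 h; 0.0655 to 0.64) and 2.35, 1.96 and 1.89 (60 min, 90 min, all minutes; 0.15 to 0.194), Nr1h3 -1.08 and -0.82 and Fgfr4 -1.48 and -1.54 (16 h minus vehicle, 16 h minus 3 h; 0.115 to 0.199). Quantile normalization ended the calls of Nr1h3 (-0.46, -0.11) and Fgfr4 (-1.11, -1.12) in those contrasts and gave calls of Nr1h4 at 6 h (0.75), 10 h (0.74) and all hours (0.69) and of Nr0b2 over all hours (1.50). Nr0b2 over all hours was also called with arrayWeights (1.04) and the offset (1.25), as were Nr1h4 for 16 h minus 3 h (-0.81 and -0.75) and Nr1h3 at 10 h (-1.03 and -0.95), and arrayWeights gave a call of Nr1h3 over all hours (-0.73). The causes were not tested.

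The first run alone gave Nr1h4 -1.00, 0.96, 1.26 and 0.38, and the fit without the 4 diet arrays that stood apart -0.69, 0.56, 0.85 and 0.27, in the order above, none called. Without both 16 h arrays, Nr1h3 gave -0.57 and -0.30, Fgfr4 -1.54 and -1.59 and Nr0b2 -1.45 (16 h minus 3 h), none called, and Nr0b2 over all hours was called (1.52). Also without the second vehicle array, a choice made after seeing the data, Nr1h4 was called at 3 h (1.11), 6 h (0.96), 10 h (0.81) and all hours (0.92), Nr0b2 over all hours (2.12) and Nr1h3 at 10 h (-0.88), and Nr1h3 (-0.48, -0.30), Fgfr4 (-1.48, -1.59) and Nr0b2 (-1.45) lost their 16 h calls.

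Same-numbered arrays of different groups did not deviate together (0 of 22, 30 and 15 pairs over 0.1). No pairing by number was thus seen, but groups this small cannot exclude it and the titles give only a repeat number. With the replicate block Nr1h4 supplemented minus deficient (1.83) and trend (0.57) and Nr1h3 16 h minus 3 h (-0.82) lost their calls, 12 of 15 held and none was gained.

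With each array left out in turn, the range was 2.10 to 3.29 for Nr0b2 at 3 h (lost without vehicle array 1), 2.17 to 2.47 at 60 min and 1.75 to 1.97 for all minutes (both lost without either vehicle array), 1.76 to 2.12 at 90 min (lost without either vehicle array or the third at 90 min) and 0.70 to 1.89 over all hours (called without vehicle array 2). Nr1h4 supplemented minus deficient was 1.13 to 1.74 and the trend 0.35 to 0.53 (both lost without either supplemented array or deficient array 5, the trend also without adequate array 2), and 16 h minus 3 h was -0.98 to -0.62 (called without the third 16 h array). Nr1h3 at 16 h was -1.34 to -0.68 and Fgfr4 -1.63 to -1.36 (both lost without the first 16 h array or vehicle array 2 or 3). Nr1h3 at 10 h and over all hours and Nr5a2 in 2 diet contrasts gained calls without single arrays. Nr1h4 at 3 h was 0.52 (without vehicle array 1) to 1.11 (without vehicle array 2) and gained no call. From 3 h to 16 h Nr1h3 was -1.08 to -0.42 (lost without any 3 h array or the first 16 h array) and Fgfr4 -1.69 to -1.41 (lost without the first 3 h array).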
